A study of Mus musculus with 24 samples.

Results

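Proteasome subunit genes were examined in striatum and cerebellum of mice carrying a huntingtin knock-in allele and of wild-type mice. A gene was taken when a probe set with a single symbol in the platform annotation bore a Psma, Psmb, Psmc, Psmd or Psme name followed by a digit. Of 44 such symbols, 40 had a probe set with a mean of at least 4 on the log2 scale in a tissue, out of 10766 genes kept by the same filter. Each gene was represented by its brightest probe set. The 40 comprised 7 alpha ring genes, 4 structural and 3 catalytic beta ring genes, 1 immunoproteasome gene, 6 ATPases and 3 other genes of the base, 8 lid genes, 3 base chaperones and 3 activators. The other 2, Psmc3ip and Psme3ip1, share the name pattern but encode no proteasome subunit.

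The 4 groups were HdhQ111/HdhQ111 striatum, Hdh+/Hdh+ striatum, HdhQ111/HdhQ111 cerebellum and Hdh+/Hdh+ cerebellum, with 6 arrays each and 24 in all. The mutant mice were homozygous for a CAG-expanded knock-in allele of the mouse huntingtin gene (Q111), and the wild-type mice were homozygous for the normal allele (Q7). Ages were given for every group as 3 to 10 weeks. Replicates are labelled as biological, but no label ties an array to its own mouse. The p-values therefore reflect the spread among these arrays, part of which may be technical. No label gives the age of a single array, so age cannot be told apart from this spread or from genotype.

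The proteasome degrades proteins tagged with ubiquitin. Its core particle is a barrel of alpha rings, which gate the entry, around beta rings, which hold the proteolytic sites. A regulatory particle caps the barrel: its lid removes ubiquitin, and the ATPases of its base unfold the substrate and feed it in. Huntington's disease is caused by an expanded glutamine stretch in huntingtin and damages the striatum before most other brain regions, and aggregated huntingtin in neurons is often marked by ubiquitin.

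The tissue labels were borne out by marker genes. All 7 striatal projection neuron markers were higher in striatum than in cerebellum in both genotypes, and all 6 granule neuron and 3 Purkinje cell markers were lower. Within a group the correlation between arrays over the kept probe sets was at least 0.983. In bulk tissue, fewer cells of a type and less RNA per cell cannot be told apart.

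No proteasome gene passed the test for a difference between Q111 and wild-type mice in either tissue. In striatum 0 of 40 were called by limma at a Benjamini-Hochberg adjusted p under 0.05, against 2.87% of the 20738 probe sets tested. In cerebellum 0 of 40 were called, against 0.458% of probe sets. The genotype by tissue interaction, which asks whether the genotype difference was unequal between tissues, called 0 of 40, against 0.0868% of probe sets. At an unadjusted p under 0.05 the counts were 3 in striatum, 2 in cerebellum and 1 for the interaction, where 19%, 13.8% and 10.1% of all probe sets passed.

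The intervals bound the size of the genotype difference. The 95% interval of the genotype difference lay within 1.2-fold either way for 30 of 40 genes in striatum and 34 of 40 in cerebellum. It lay within 1.5-fold for 39 and 38 genes. The median difference was -0.03 in striatum and -0.04 in cerebellum (log2, Q111 minus wild type), beside -0.02 and -0.05 over all probe sets. The direction of these medians depended on scaling. After each array was centred on its own median they were 0.02 and 0.06, and 35 of 40 genes were then higher in Q111 cerebellum, beside 14 of 40 as deposited.

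**Figure D1:**
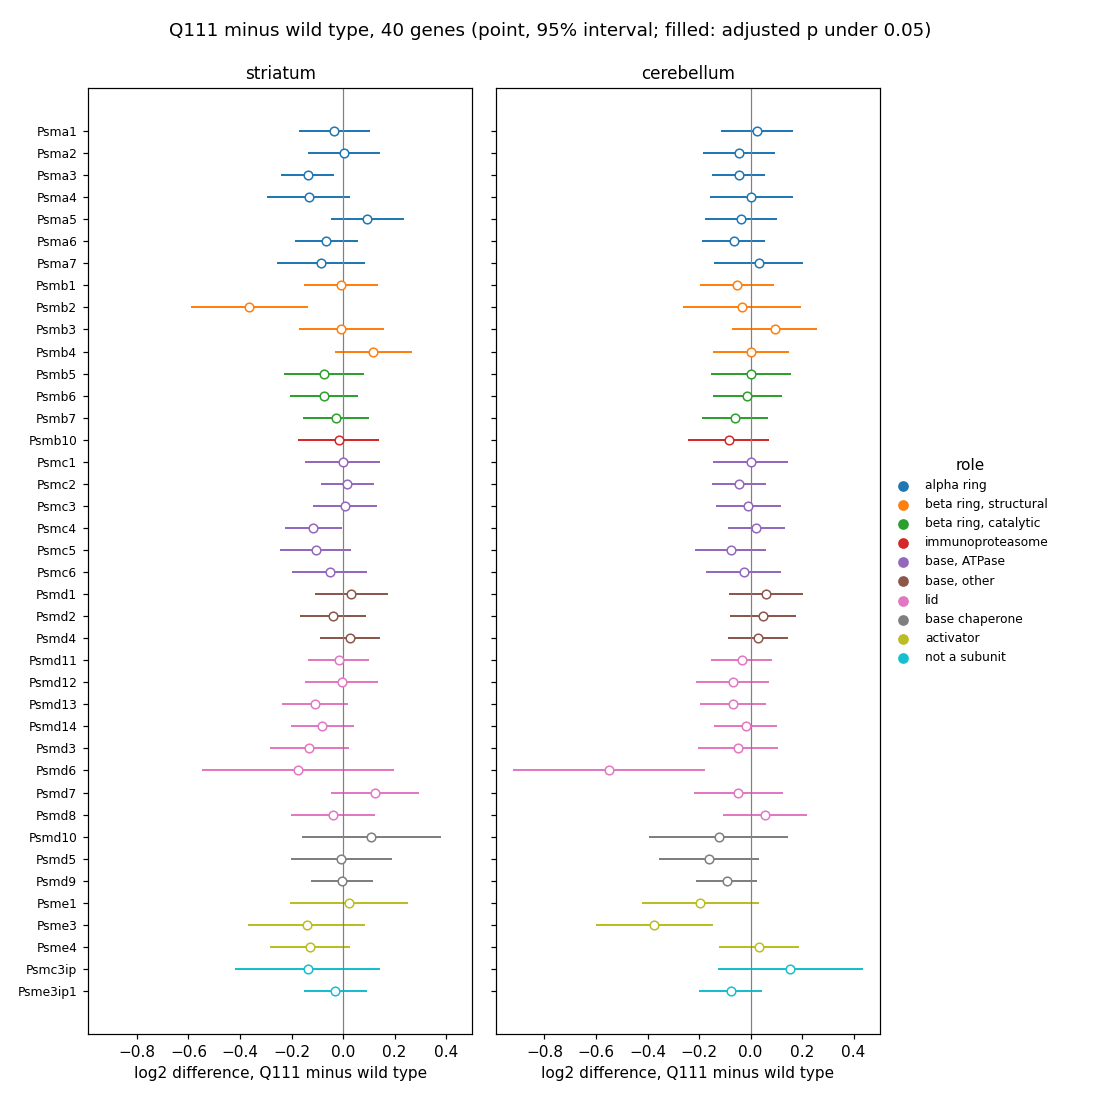
Log2 difference between Q111 and wild-type mice for the 40 genes, in striatum (left) and cerebellum (right), with points for the estimate and lines for the 95% interval, coloured by role. Every point is open because no gene had an adjusted p under 0.05, and Psmb2 in striatum and Psmd6 and Psme3 in cerebellum lie farthest from 0.

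Among the catalytic beta subunits, Psmb5 carries the chymotrypsin-like activity, Psmb6 the caspase-like activity and Psmb7 the trypsin-like activity. Psmb5 lay between 10.39 and 10.77 with a median of 10.62 in Q111 striatum, against 10.44 to 10.86 with a median of 10.69 in wild-type striatum. In cerebellum it lay between 10.37 and 10.60 with a median of 10.51 in Q111 mice, against 10.32 to 10.68 with a median of 10.52 in wild-type mice. The groups overlapped in both tissues, and the differences were -0.07 ± 0.07 in striatum and 0.00 ± 0.07 in cerebellum (SE, n = 6 arrays per group). Psmb6 differed by -0.07 and -0.01 and Psmb7 by -0.03 and -0.06 in striatum and cerebellum, and none of these passed the test.

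The immunoproteasome replaces the catalytic subunits in cells exposed to interferon and in immune cells. Psmb10, one of its catalytic subunits, differed between genotypes by -0.02 ± 0.08 in striatum and -0.08 ± 0.08 in cerebellum (SE). Psmb8 and Psmb9, the others, did not pass the filter. The brighter probe set of Psmb8 averaged 3.70 in striatum and 3.67 in cerebellum, and Psmb9 averaged 2.33 and 2.36. Psma8, an alpha subunit of the testis, and Psmb11, a beta subunit of the thymus, were also under the filter, with tissue means of at most 2.61. Psmd9 at 5.22 in striatum was the dimmest gene inside it.

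Psmb2, a structural beta subunit, had the largest difference in striatum. Its values ran from 7.83 to 8.35 with a median of 8.08 in Q111 striatum, against 8.09 to 8.64 with a median of 8.51 in wild-type striatum. All 6 Q111 arrays lay below the wild-type mean, and the ranges overlapped through a single low wild-type array. The difference was -0.36 ± 0.11 (SE), with an adjusted p of 0.073 by limma and an exact two-sided permutation p of 0.0108 for this gene alone. Without wild-type striatum replicate 2, the low array, the adjusted p was 0.0329 and the difference -0.44. With any other striatal array left out, the adjusted p was 0.0516 to 0.164, and Psmb2 did not pass. In cerebellum Psmb2 differed by -0.03 ± 0.11, and the interaction had an adjusted p of 0.48.

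The other largest differences in striatum were smaller and none passed the test. Psmd6, a lid subunit, differed by -0.17 and the activator Psme3 by -0.14. Psmd7, a lid subunit that pairs with the deubiquitinase, differed by 0.12, the structural beta subunit Psmb4 by 0.12 and the base chaperone Psmd10 by 0.11. The remaining genes with an unadjusted p under 0.05 were Psma3 at -0.14 and the ATPase Psmc4 at -0.12, with adjusted p-values of 0.127 and 0.242 by limma.

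In cerebellum the largest differences belonged to Psmd6 and Psme3. Psmd6 ran from 9.81 to 10.51 with a median of 10.33 in Q111 cerebellum, against 10.23 to 11.13 with a median of 10.91 in wild-type cerebellum. The difference was -0.55 ± 0.18 (SE), with an adjusted p of 0.176 by limma and an unadjusted exact permutation p of 0.013 for this gene alone. All 6 Q111 arrays lay below the wild-type mean, and the ranges overlapped. The second kept probe set of Psmd6 differed by 0.03.

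Psme3 encodes an activator of the core that works in the nucleus without ATP. It ran from 8.45 to 8.84 with a median of 8.73 in Q111 cerebellum, against 8.87 to 9.20 with a median of 9.07 in wild-type cerebellum. Every Q111 array lay below every wild-type array, and Psme3 was the 1 gene of 40 without overlap in this comparison, against 1.12% of all probe sets. In striatum 0 of 40 genes were without overlap, against 2.39%. The cerebellar difference was -0.37 ± 0.11 (SE), with an adjusted p of 0.125 by limma. The unadjusted exact permutation p for this gene alone was 0.00216. That is the smallest value the test can give and follows from the lack of overlap. With arrays weighted by quality the adjusted p was 0.0473. With any single cerebellar array left out it was 0.109 to 0.271. The mean over both kept probe sets of Psme3 differed by -0.22, with an adjusted p of 0.298. Psme1, a subunit of the interferon-induced activator, differed by -0.19 ± 0.11 in cerebellum and 0.02 ± 0.11 in striatum. The nuclear activator Psme4 differed by 0.03 and -0.13 in the same tissues. Of the higher values in cerebellum, the largest were Psmc3ip at 0.15, Psmb3 at 0.09 and Psmd1 at 0.06.

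**Figure D2:**
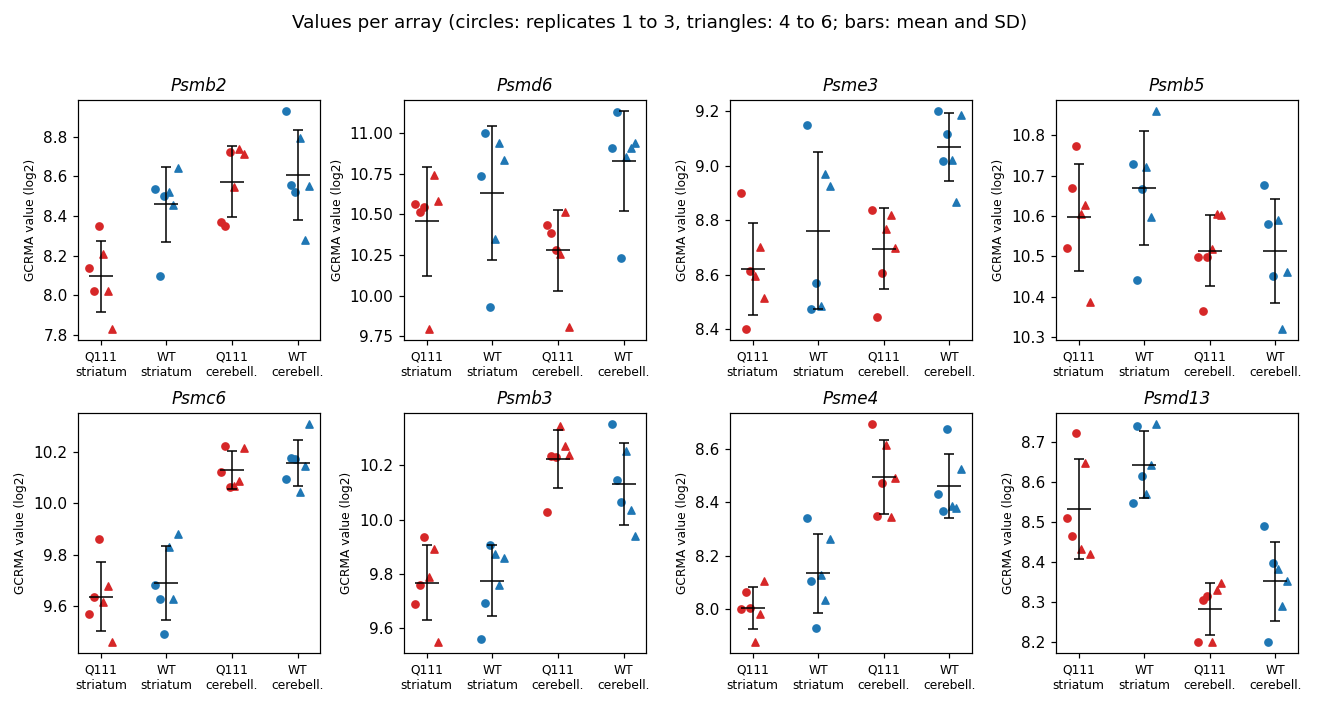
Values of 8 genes on each array (GCRMA, log2), with Q111 in red left of wild type in blue for each tissue, circles for replicates 1 to 3, triangles for replicates 4 to 6, and bars for the mean and SD of 6 arrays. Psme3 in cerebellum shows separate genotypes, while Psmc6 and Psmb3 separate the tissues in both genotypes.

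Where a gene had several kept probe sets, these often gave unlike signs. Of 17 such genes, 9 had both signs among their probe sets in striatum and 9 in cerebellum. The spread between probe sets of a gene had a median of 0.11 in striatum and 0.09 in cerebellum, beside a median size of the genotype difference of 0.06 and 0.05 over the 40 genes. Psmc6 in cerebellum ranged from -0.31 to 0.05 over 3 probe sets, and Psme4 in striatum from -0.21 to 0.09 over 4.

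The genotype difference in striatum was unequal between replicates 1 to 3 and 4 to 6. Among replicates 1 to 3 the median difference was 0.04 and 23 of 40 genes were higher in Q111 striatum. Among replicates 4 to 6 it was -0.14 and 6 of 40 were higher. Over all probe sets, 47.1% and 43.8% were higher in the same sets. The sign was the same in both sets for 17 of 40 genes, beside 50.1% of all probe sets. Averaged over both genotypes, the 2 sets differed by only -0.05 to 0.05 across the 40 genes in striatum and by -0.05 to 0.04 in cerebellum. Over all probe sets the SD of that difference was 0.05 in striatum, beside 0.21 for the genotype difference. Where the Q111 mean was higher in one set than in the other, the wild-type mean was therefore lower by about as much, and the medians of the sets are not independent repeats of the comparison. Psme1 differed by 0.25 in the first set and -0.21 in the second, the base chaperone Psmd5 by 0.25 and -0.26, and the ATPase Psmc1 by 0.16 and -0.16. Psmb2 was lower in both, by -0.21 and -0.52. In cerebellum the medians were -0.07 and -0.01, and the sign was the same for 19 of 40 genes, beside 57.0% of all probe sets. No label names a batch or the age of a single array, and the part of any handling step or of age in this split was not tested.

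**Figure D3:**
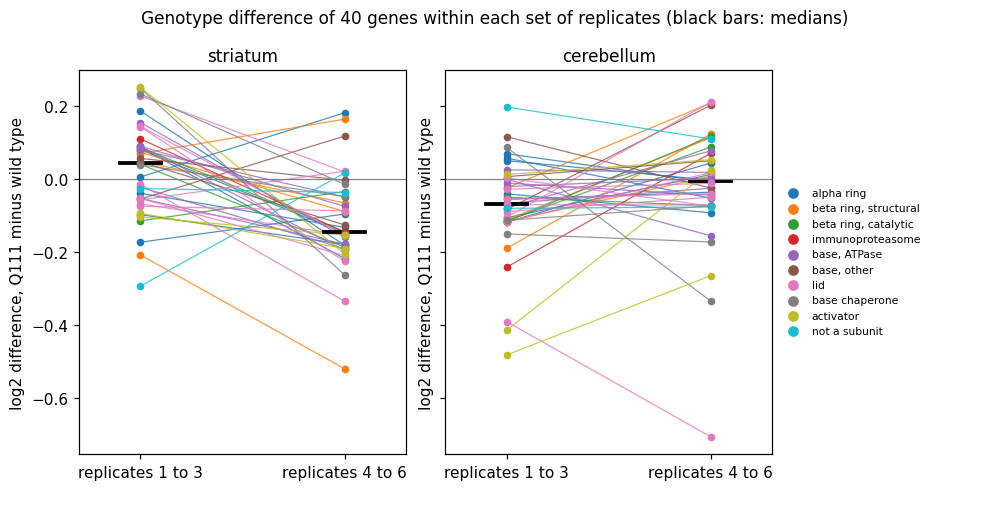
Log2 difference between Q111 and wild-type mice for the 40 genes within replicates 1 to 3 and within replicates 4 to 6, in striatum (left) and cerebellum (right), with a line joining each gene and black bars at the medians. In striatum the median lies at 0.04 in the first set and at -0.14 in the second.

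Between tissues, about as many proteasome genes were called as were not, a smaller share than over all probe sets. The share called lower in striatum lay near that of all probe sets, and the share called higher lay under it. In Q111 mice 19 of 40 were called, against 71.4% of all probe sets. Of these, 5 were higher in striatum than in cerebellum (31.3% of probe sets) and 14 lower (40.1%). In wild-type mice 21 of 40 were called, against 71.8%, with 4 higher (30.6%) and 17 lower (41.2%). None of the 40 differed by 1.5-fold or more in either genotype, where 42.2% and 42.6% of probe sets did. The median size of the difference was 0.16 in Q111 and 0.20 in wild-type mice, beside 0.46 and 0.47 over all probe sets. Values of striatum and cerebellum were without overlap for 13 genes in Q111 mice and 12 in wild-type mice, against 51.2% and 52.2% of probe sets.

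The same direction was called in both genotypes for 15 of 40 genes, against 64% of probe sets. Of these, 13 were lower and 2 higher in striatum, and no gene was called in opposite ways. The shares of all probe sets by direction in both genotypes were not computed, so nothing is read from these counts. The 13 were Psma1 and Psma7 of the alpha ring, Psmb3 of the beta ring, the ATPases Psmc3, Psmc4, Psmc5 and Psmc6, Psmd2 and Psmd4 of the base, Psmd8 and Psmd11 of the lid, the activator Psme4, and Psme3ip1. The 2 were Psmb1, a structural beta subunit, and Psmd13, a lid subunit.

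**Figure D4:**
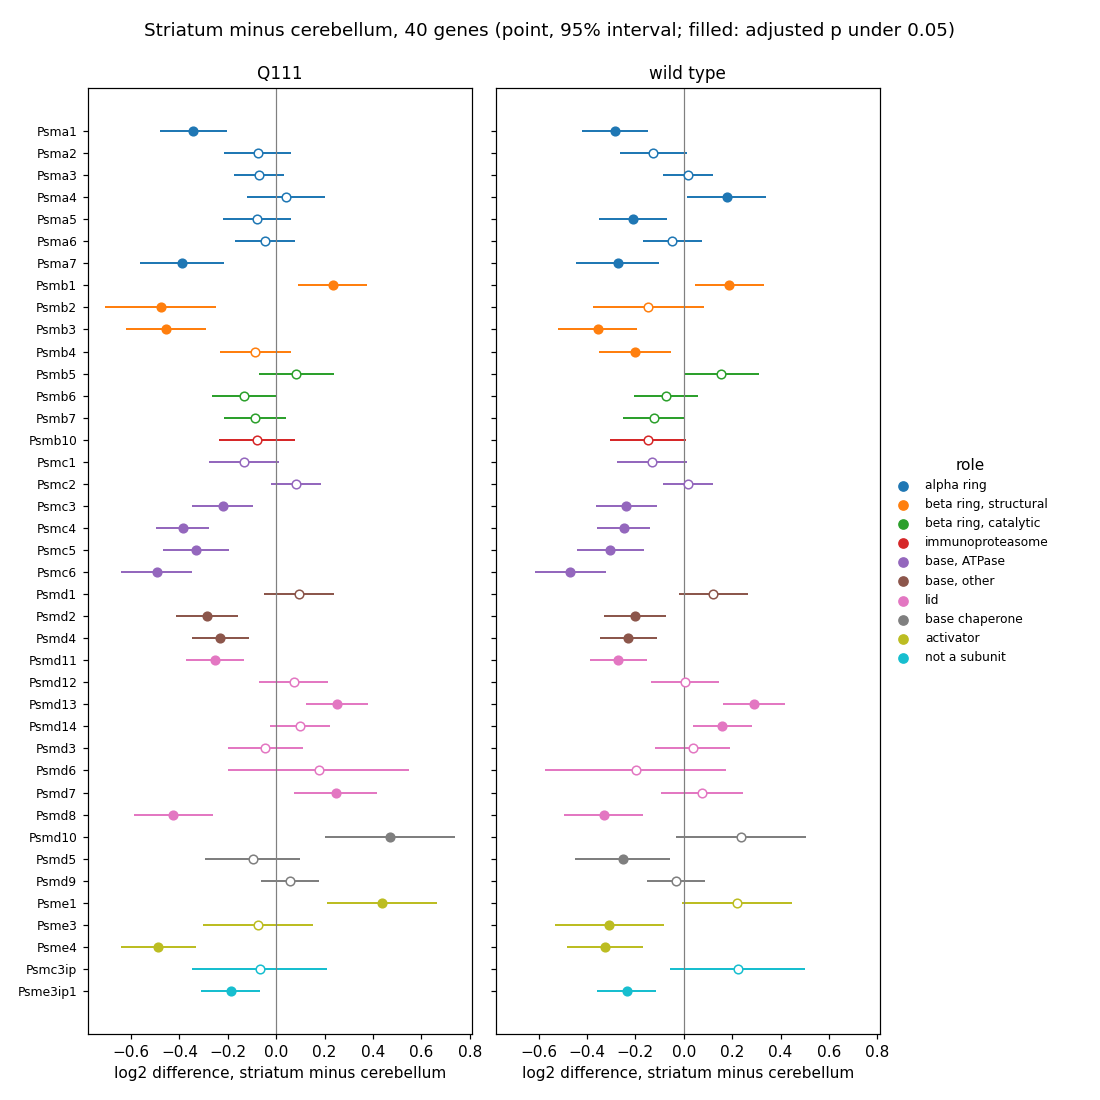
Log2 difference between striatum and cerebellum for the 40 genes in Q111 (left) and wild-type mice (right), with points for the estimate and lines for the 95% interval, coloured by role and filled where the adjusted p was under 0.05. The filled points number 19 in Q111 and 21 in wild-type mice, and most lie below 0.

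In the base, 4 of 6 ATPases and 2 of 3 other genes were called in each genotype, all lower in striatum. Beside these shares of 66.7%, 71.4% of all probe sets in Q111 and 71.8% in wild-type mice were called either way. Those called lower made up 40.1% and 41.2%. With 6 and 3 genes nothing is read from these counts. Psmc6 ran from 9.46 to 9.86 with a median of 9.63 in Q111 striatum, against 10.07 to 10.22 with a median of 10.10 in Q111 cerebellum. In wild-type mice it ran from 9.49 to 9.88 with a median of 9.65 in striatum, against 10.05 to 10.31 with a median of 10.16 in cerebellum. The tissues did not overlap in either genotype. Psmc6 fell by 0.49 on the log2 scale in Q111 and by 0.47 in wild-type striatum, with adjusted p-values of 1.08e-06 and 2.32e-06 by limma. Psmc1 and Psmc2 did not pass, at -0.13 and 0.08 in Q111 mice. Psmd1, a scaffold of the base, was not called, at 0.09 in Q111 and 0.12 in wild-type mice. Psmd4, a ubiquitin receptor, fell by 0.23 in both genotypes, and Psmd2, another scaffold, fell by 0.29 in Q111 and 0.20 in wild-type striatum. The second kept probe set of Psmd4 differed by -0.07 in Q111 and -0.05 in wild-type mice and was called in neither.

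The core was mixed. Of the 3 constitutive catalytic genes 0 were called in either genotype, where 71.4% and 71.8% of all probe sets were, and with 3 genes nothing is read from this count. Psmb5 differed by 0.08 in Q111 and 0.16 in wild-type mice, and Psmb6 by -0.13 and -0.07. Psmb3 fell by 0.46 in Q111 and 0.36 in wild-type striatum, and Psma7 fell by 0.39 and 0.27. Psmb1 rose by 0.23 in Q111 and 0.19 in wild-type striatum. Psma4 of the alpha ring rose by 0.18 in wild-type striatum, with an adjusted p of 0.0469 by limma, and was 0.04 in Q111 mice. Psmb2 was called in Q111 mice at -0.48 and was -0.15 in wild-type mice, a contrast whose interaction was not called.

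In the lid, 4 of 8 genes were called in each genotype, 2 higher and 2 lower, where 71.4% and 71.8% of all probe sets were called. Psmd13 ran from 8.42 to 8.72 with a median of 8.49 in Q111 striatum, against 8.20 to 8.35 with a median of 8.31 in Q111 cerebellum. It rose by 0.25 in Q111 and 0.29 in wild-type striatum, and it was the one gene with all striatal arrays above all cerebellar arrays in both genotypes. The second kept probe set of Psmd13 differed by only 0.08 and 0.09 and was called in neither. Psmd7 rose by 0.25 in Q111 striatum and was 0.08 in wild-type mice. Psmd14, the deubiquitinase of the lid, rose by 0.16 in wild-type striatum and was 0.10 in Q111 mice. Psmd8 fell by 0.43 and 0.33 in Q111 and wild-type striatum.

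Activators and chaperones went both ways. Psme4 ran from 7.88 to 8.11 with a median of 8.003 in Q111 striatum, against 8.35 to 8.69 with a median of 8.48 in Q111 cerebellum, and fell by 0.49. In wild-type striatum it fell by 0.33. Psme1 rose by 0.44 in Q111 striatum and was 0.22 in wild-type mice, with an adjusted p of 0.0778. Psme3 fell by 0.31 in wild-type striatum and was -0.08 in Q111 mice. Psmd10 rose by 0.47 in Q111 striatum and was 0.24 in wild-type mice. The interaction was called for none of these. Other probe sets did not all follow the brightest one: over the 4 kept for Psme4 the difference ran from -0.49 to 0.03 in Q111 mice and from -0.33 to 0.04 in wild-type mice. The second kept probe set differed by 0.15 for Psme3 and by -0.02 for Psmb1 in wild-type mice, against the sign of the first.

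Promoter sequences are shown for the members that hold an antioxidant response element-like motif, since Nfe2l1 and Nfe2l2, which switch on proteasome genes, act through such elements. The motif searched was TGACNNNGC on both strands, in windows from 250 bases before to 50 after the gene start, taken from RefSeq (GRCm38.p6). It was found in 6 of 32 members with a window (18.8%), against 14% of all symbols; CCAAT was found in 12 of 32 (37.5%), against 41.1%. Capitals mark the motif in the 50 bases printed, given 5′ to 3′ on the strand of the gene. In Psmc6, Psmd12 and Psme4 the motif lies on the opposite strand, so the capitals read as its reverse complement.
Psmb5: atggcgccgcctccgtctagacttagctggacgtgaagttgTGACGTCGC
Psmb6: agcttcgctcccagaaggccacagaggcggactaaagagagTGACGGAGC
Psmc6: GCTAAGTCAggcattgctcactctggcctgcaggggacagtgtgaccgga
Psmd12: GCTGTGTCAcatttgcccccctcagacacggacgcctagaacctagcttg
Psmd9: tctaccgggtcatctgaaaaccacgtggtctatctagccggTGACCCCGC
Psme4: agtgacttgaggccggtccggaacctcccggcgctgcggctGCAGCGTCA
These windows lie in GRCm38.p6 for Psmb5 at chr14:54618034-54618083 on the minus strand, Psmb6 at chr11:70525307-70525356 on the plus strand and Psmc6 at chr14:45329597-45329646 on the plus strand. The others are Psmd12 at chr11:107479281-107479330 on the plus strand, Psmd9 at chr5:123228118-123228167 on the plus strand and Psme4 at chr11:30771727-30771776 on the plus strand. Psmc6 and Psme4 were called lower in striatum in both genotypes, while Psmb5, Psmb6, Psmd9 and Psmd12 were called in neither.

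Deviations of the arrays from their group means showed how the genes varied together. Over 38 genes of the complex the median pairwise correlation was 0.22 across 24 arrays and 77.1% of pairs were positive, beside 0.03 and 54.9% for every 20th kept probe set. Psmb5 and Psma2 followed the mean of the others most closely, at 0.81 and 0.80, and Psmd9 and Psmb4 least, at -0.33 and -0.19. The array mean of the 38 genes correlated with that of all kept probe sets at 0.42. These values describe arrays that share one normalization.

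Other genes of the pathway were not called between genotypes either. Of 14 associated and assembly factors, 8 regulators, 6 ubiquitin and shuttle genes and 5 MHC class I and interferon genes, 0 passed the test in either tissue. Over all probe sets 2.87% passed in striatum and 0.458% in cerebellum, and with lists this small nothing is read from these counts. The regulator Mafk, a partner of Nfe2l1 and Nfe2l2, differed by -0.26 in striatum and Nfe2l1 by -0.20. In cerebellum Nfe2l1 differed by -0.17 and Ngly1, which removes sugars from it, by -0.15. The shuttle factor Rad23b differed by -0.24 and the ubiquitin-activating enzyme Uba6 by -0.21 in cerebellum, and Ubqln4 by -0.13 and Ubqln2 by 0.11 in striatum. The deubiquitinase Usp14 and the assembly factor Fbxo7 differed by -0.16 each in cerebellum, and Fbxo7 by -0.18 and Psmg2 by -0.16 in striatum. H2-K1, which presents peptides made by the proteasome, differed by -0.33 in striatum and -0.44 in cerebellum, and H2-D1 by -0.35 and -0.31. The other members of that list went both ways: B2m, the partner chain of both, differed by 0.21 and 0.02, Irf1 by 0.11 and 0.01, and Tapbp by -0.07 and -0.19. Genes named between tissues were chosen after their values were seen: Usp14 rose by 0.72 in Q111 and 0.59 in wild-type striatum, and the assembly chaperone Psmg2 fell by 0.54 and 0.53. Nfe2l1 rose by 0.51 and 0.55, and H2-D1 fell by 2.62 and 2.58.

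Markers of other cells differed with genotype. Of 3 cortical projection neuron markers, 2 were called higher in Q111 striatum, where the mean of the 3 ran from 5.63 to 6.97, against 5.35 to 6.16 in wild-type striatum. These were Neurod6 and Fezf2. Of 10 microglial markers, C1qa, C1qb and C1qc were called higher and Aif1 lower, with a mean over the list of 7.59 to 7.85 in Q111 striatum, against 7.34 to 7.69 in wild-type striatum. The list went both ways, with 6 of 10 markers higher in Q111 striatum and a median difference of 0.06. P2ry12 differed by -0.25, and Csf1r, Cx3cr1 and Tmem119 by 0.01, -0.01 and -0.01. Of 3 endothelial markers Cldn5 was called lower, with a mean of 6.33 to 6.70 in Q111 striatum, against 6.82 to 7.32 in wild-type striatum. In cerebellum 0 of these markers were called, but the endothelial mean was 6.00 to 6.33 in Q111 mice, against 6.41 to 6.73 in wild-type mice, without overlap. There Cldn5 differed by -0.42 and Slco1a4 by -0.49, and C1qa, C1qb and C1qc by 0.35, 0.41 and 0.85. The microglial mean was 5.44 to 5.94 in Q111 cerebellum, against 5.32 to 5.67 in wild-type cerebellum. There 8 of 10 microglial markers were higher in Q111 mice, with a median difference of 0.06, while P2ry12 differed by -0.24 and Aif1 by -0.06. Trem2 of the microglial list and Pecam1 and Cdh5 of the endothelial list were under the filter. Their part in the proteasome values, those of Psmb2, Psmd6 and Psme3 included, was not tested.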

How the data were processed

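Total RNA of 24 samples was hybridised to Affymetrix mouse arrays. Per the submitters' processing notes, the authors made the deposited values with GCRMA (its version is not stated there), which corrects background, normalizes across arrays and summarizes probes, and the values, from -0.77 to 16.33 with no stated log base, were read as log2. Control probe sets (64) were left out, and 20738 of 45037 others had a mean of at least 4 in a tissue. limma 3.58.1 (R 4.3.3) was fitted to all 24 arrays with 4 group means, with adjustment over all kept probe sets. The number of arrays limits the precision. Single genes were tested by exact two-sided permutation over 924 arrangements. These p-values are unadjusted and belong to genes picked for their large differences. Named genes were those past a threshold between genotypes, the 3 largest differences each way between genotypes and the 6 largest each way between tissues. Psmb5 to Psmb10, Psme1, Psme3, Psme4, some of the genes with probe sets of unlike sign, and the largest of each other list were named too. Members and lists were chosen with earlier results of these data known, and the 1.2-fold limit after the intervals had been seen. The replicate numbers were not taken to pair the samples, since no label says that same-numbered arrays share a mouse. Nor did every pair have a correlation over 0.1. Correlations of same-numbered arrays were taken on deviations from group means, not on the values themselves. Between genotypes they ran from -0.41 to -0.09 in striatum and from -0.42 to 0.12 in cerebellum. Because Q111 and wild-type means of a replicate set deviated in opposite ways, these correlations cannot decide whether arrays were paired. Between tissues they ran from -0.05 to 0.14 in Q111 mice, with 2 of 6 pairs over 0.1, and from -0.0043 to 0.18 in wild-type mice, with 3 of 6, and 2 and 3 arrays correlated best with their own number. The fit was tested on simulated data. A probe set that the annotation pairs with several symbols was not used here. Psme2 therefore has no value, since its probe set is also paired with Psme2b.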

Additional observations from a re-analysis of the deposited data

Results flagged for a closer look

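A single array stood apart from the other 5 of its group, by Dixon's test at the 95% level, in 13 of 160 combinations of gene and group, where chance gives about 8, or 1 in 20.
In Q111 striatum these were Psmd6 at 9.79 on replicate 4 (others 10.51 to 10.74) and Psmd7 at 9.12 on replicate 6 (others 9.30 to 9.39).
In wild-type striatum these were Psmb10 at 7.54 on replicate 6 (others 7.15 to 7.27) and Psmb2 at 8.09 on replicate 2 (others 8.45 to 8.64).
They also included Psmc2 at 11.95 on replicate 4 (others 11.73 to 11.78).
In Q111 cerebellum these were Psmb3 at 10.03 on replicate 1 (others 10.23 to 10.35) and Psmc3 at 10.30 on replicate 2 (others 10.42 to 10.48).
They also included Psmd2 at 10.41 on replicate 3 (others 10.28 to 10.32) and Psmd6 at 9.81 on replicate 6 (others 10.26 to 10.51).
In wild-type cerebellum these were Psma6 at 11.06 on replicate 4 (others 10.95 to 10.99) and Psmc5 at 11.22 on replicate 3 (others 11.42 to 11.48).
They also included Psmd12 at 9.75 on replicate 6 (others 9.47 to 9.57) and Psmd6 at 10.23 on replicate 3 (others 10.85 to 11.13).
Psmd6 was set apart in 3 of the 4 groups, each time by a low array, and its second probe set is described above. Of the striatal arrays, only the low Psmb2 array brought Psmb2 past the threshold in striatum when removed.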

How the results depend on the processing

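The count of proteasome genes called between genotypes stayed at 0 under most alternatives. In striatum it was 1 (Psmb2, lower) at an adjusted p threshold of 0.1 and 1 without wild-type replicate 2. Leaving out single striatal arrays thus gave 0 to 1. In cerebellum it was 1 (Psme3, lower) with array weights and 0 whichever cerebellar array was left out, and the interaction stayed at 0. Between tissues, leaving out single arrays of the compared groups gave 19 to 20 genes in Q111 and 19 to 24 in wild-type mice. After quantile normalization 7 genes were called higher in striatum in each genotype, beside 5 in Q111 and 4 in wild-type mice as deposited. With replicates 1 to 3 alone 13 genes were called in wild-type mice, and with replicates 4 to 6 alone 6. Fewer arrays enter these fits. The share of all probe sets called under each alternative is not given here. Nothing particular to the proteasome genes is therefore read from the counts under alternatives. Of the genes called, 19 of 19 in Q111 and 18 of 21 in wild-type mice passed whichever array of the compared groups was left out. Under all 12 other alternatives 8 and 4 passed. With the replicate number as a block the counts were 0, 0 and 0 between genotypes and for the interaction, and 19 and 21 between tissues, so the block changed no count. A block of replicates 1 to 3 against 4 to 6 was also fitted. The adjusted p by limma was then 0.111 for Psmb2 in striatum and 0.195 for Psme3 in cerebellum. Centring arrays on their medians moved the median of all probe sets by 0.05 in striatum and 0.10 in cerebellum; quantile normalization gave member medians of 0.00 and 0.01. Signal near background limits Psmb8 and Psmb9.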
